A study of Mus with 15 samples.

Results

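The genes described here are the tumour necrosis factor (TNF) superfamily ligands, their receptors and the TNF receptor-associated factors (TRAFs), which are the adaptor proteins that bind the tails of many of these receptors. They were chosen by symbol and biotype alone, as the protein-coding rows named Tnfsf or Tnfrsf with a number, Traf1 to Traf6, or Tnf, Lta, Ltb, Ltbr, Fas, Fasl, Cd40, Cd40lg, Cd27 and Cd70. The nerve growth factor receptor Ngfr was left out. The choice gave 47 genes among 55471 rows of the matrix, of which 21933 are protein-coding, and the 47 are 17 ligands, 24 receptors and 6 TRAFs. The rule for choosing them uses no measured value, but it was set with earlier results of these data known.

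Ligands of the family are mostly made as membrane proteins on immune cells and can be shed, and trimeric ligands cluster their receptors. Receptors with a cytoplasmic death domain can recruit adaptors and caspases that start cell death, while most of the others recruit TRAFs and turn on the NF-kB and MAP kinase pathways. In adipose tissue TNF is best known as a product of inflammatory macrophages that promotes lipolysis and insulin resistance, and lymphotoxins, BAFF and its receptor and several costimulatory pairs are best known from lymphocytes and lymph nodes.

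The study measured messenger RNA in mouse adipose tissue by sequencing in 3 groups, namely fat grafts 3 days after grafting, fat grafts 7 days after grafting, and control adipose tissue that carries no graft label. All samples are labelled wild-type C57BL/6 of 7 weeks of age, and each group has 5 samples. The labels used here do not give the depot, the recipient, the graft site or whether each sample is a separate animal, so p-values measure the spread between these samples, which may be partly technical. The question that the design addresses is how gene expression in transplanted fat departs from that of control fat over the first week, and the series title concerns a shift of surviving grafts toward glycolysis. In whole tissue, fewer cells of a type and less RNA of a gene per cell cannot be told apart.

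Libraries held between 17.1 and 32 M estimated counts. Sample values are in counts per 1000000 of the scaled library (CPM). All 8 adipocyte markers were detected in every library, and their summed level was 1051 to 3915 CPM in day 3 grafts, 283 to 735 CPM in day 7 grafts and 10603 to 31141 CPM in controls. Macrophage markers summed to 2438 to 5149 CPM in day 3 grafts, 2914 to 5106 CPM in day 7 grafts and 296 to 1169 CPM in controls, and 8 of 8 were called higher in the grafts at each day. Summed B cell markers were 4.28 to 8.64 CPM in day 3 grafts, 9.73 to 25.6 CPM in day 7 grafts and 142 to 1776 CPM in controls, and summed lymph node stroma markers were 46.9 to 95.9 CPM in day 3 grafts, 19.7 to 162 CPM in day 7 grafts and 181 to 1806 CPM in controls. Within these ranges the lowest control for B cell, T and NK cell and lymph node stroma markers was always control 4, whose lymph node stroma sum was 181 CPM, against 1301 to 1806 CPM in the other controls, and whose adipocyte sum of 31141 CPM was the highest. In 31 of the 47 genes control 4 lay below every other control. The same count was not made over all genes, so it is not read as a trait of the family. Control 4 also had the lowest scaling factor of the libraries, 0.746. Values without control 4 stand beside the results that it moved.

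At day 3, 16 of the 44 genes that passed the expression filter were called higher and 13 lower than in controls, by limma with voom weights and a Benjamini-Hochberg adjusted p under 0.05 over 16051 genes, where 60.4% of all tested genes were called, 30.1% higher and 30.3% lower. At day 7, 19 were called higher and 11 lower, where 60.7% of all genes were called, 32.2% higher and 28.4% lower. A large part of the transcriptome therefore differed, and the family's shares called were 36.4% higher and 29.5% lower at day 3. At an unadjusted p under 0.05 there were 31 members at day 3, against 64.6% of all genes, and 32 at day 7, against 64.5%. Day 3 grafts lay above every control in 14 members and below every control in 8, against 20.6% and 19.9% of all genes. Day 7 grafts lay above every control in 13 members and below every control in 8, against 22.7% and 19.8% of all genes. The median log2 fold change of the 44 genes was 0.03 at day 3 and 0.07 at day 7, beside -0.02 and 0.03 over all tested genes. Both comparisons use the same 5 controls, so they are not independent of each other. Without control 4 the counts were 14 higher and 19 lower at day 3, where 30.2% of all genes were called higher and 33.2% lower, and 15 higher and 18 lower at day 7, where 30.9% were higher and 33.2% lower. The family's median was then -0.23 at day 3 and -0.24 at day 7, beside -0.04 and -0.03 over all genes, so its sign turned at both days. On the deposited TPM values, which give transcripts per 1000000, as log2(TPM + 0.1), the median of all tested genes shifted to 0.28 at day 3 and 0.43 at day 7. The share of all genes called was then 39.9% higher and 18.4% lower at day 3 and 46.1% higher and 15.6% lower at day 7, while the family had 17 higher and 12 lower at day 3 and 19 higher and 9 lower at day 7.

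Calls were also counted by role. Of 23 receptors tested, 12 rose and 6 fell at day 3, and 13 rose and 5 fell at day 7, with medians of 0.78 and 0.72. Of 15 ligands tested, 4 rose and 5 fell at day 3, and 6 rose and 4 fell at day 7, with medians of 0.20 and 0.50. No TRAF rose and 2 of 6 fell at each day, with medians of -0.73 and -0.62. Over all genes the shares were 30.1% higher and 30.3% lower at day 3 and 32.2% higher and 28.4% lower at day 7, as above. Without control 4, 11 receptors rose and 8 fell at each day, 3 ligands rose and 6 fell at day 3, and 4 ligands rose and 5 fell at day 7. The median of the ligands then turned to -0.71 at day 3 and -0.30 at day 7. Of the 6 TRAFs 5 were called lower at each day without control 4, with medians of -1.0 and -0.87. These are counts, and no test compared the roles. Among the 5 receptors known for a death domain that binds adaptors, Tnfrsf1a, Tnfrsf10b and Tnfrsf21 rose, Tnfrsf25 fell and Fas was not called. All 3 receptors known as decoys or soluble traps, Tnfrsf11b, Tnfrsf22 and Tnfrsf23, rose at both days, although the day 7 call of Tnfrsf22 was lost without control 4.

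**Figure D1:**
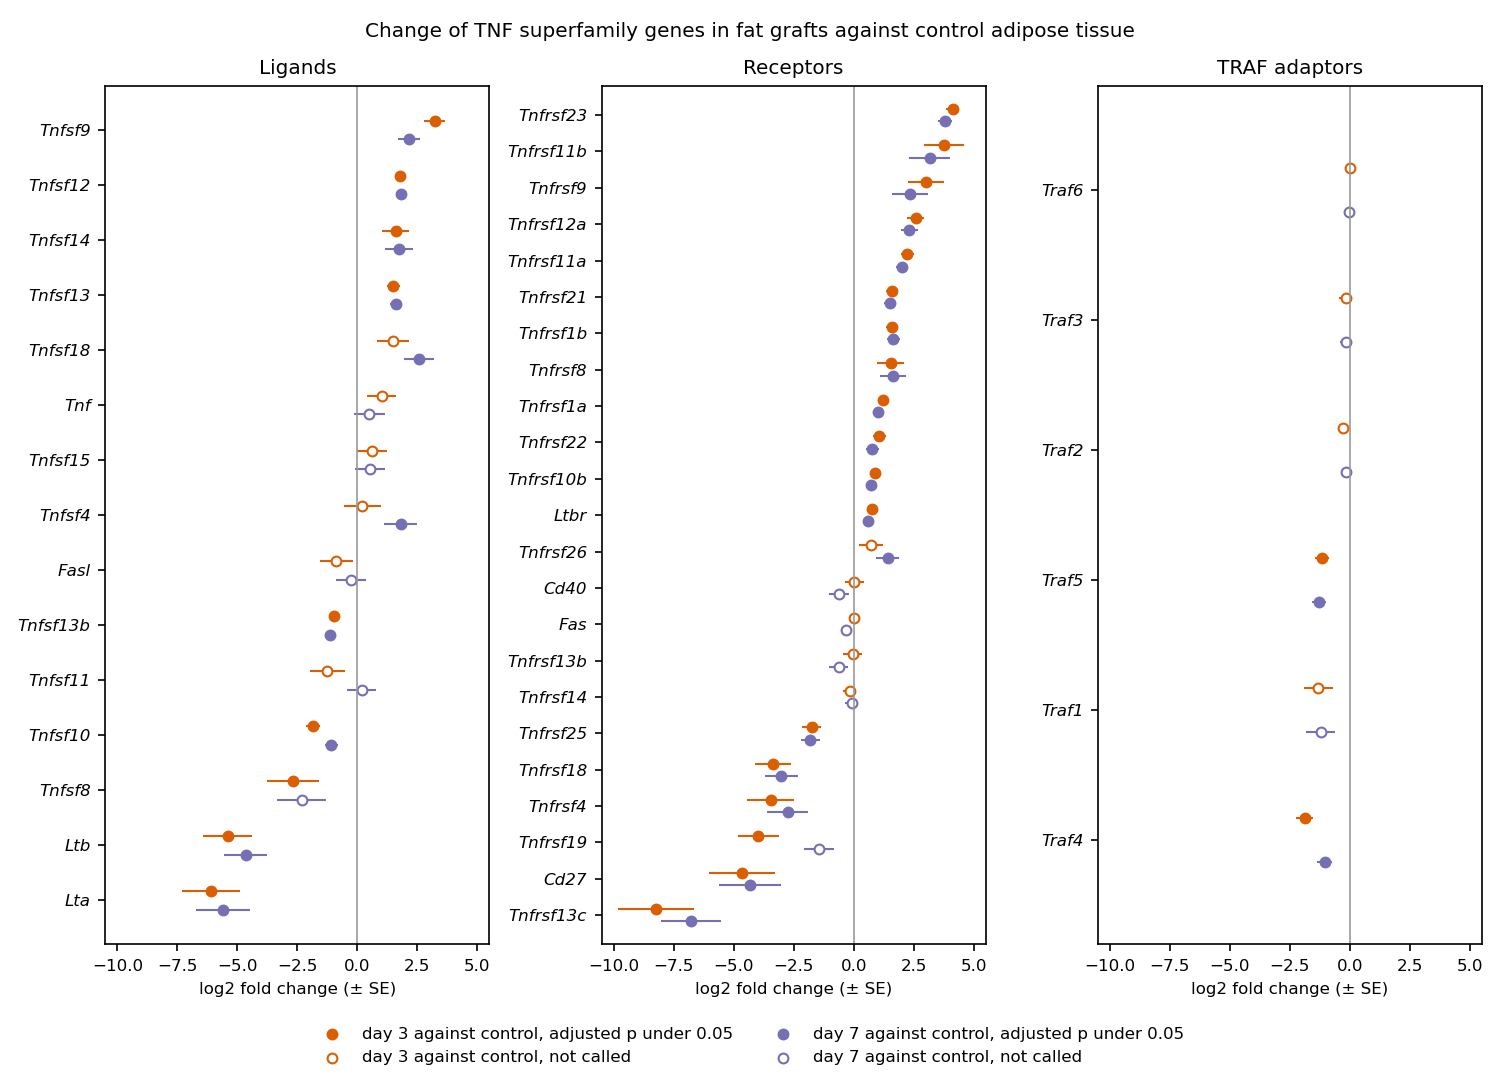
Log2 fold change of each tested gene in day 3 grafts (orange) and day 7 grafts (purple) against controls, with bars of 1 SE from 5 samples a group; filled points passed an adjusted p of 0.05. Among receptors the points run from Tnfrsf23 at 4.12 to Tnfrsf13c at -8.25 at day 3, and the TRAFs lie between 0.01 and -1.89.

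Levels between genes were compared in the deposited TPM values, which are scaled for transcript length. The TNF receptor Tnfrsf1a, found on nearly all cell types, was the most abundant receptor in each group, at 175 ± 23.5 TPM in day 3 grafts, 164 ± 14.6 TPM in day 7 grafts and 62.9 ± 15.5 TPM in controls (SD, n = 5 in each group here and below). Next in the grafts came Tnfrsf1b, the second TNF receptor, at 80.1 ± 18.5 TPM in day 3 grafts, 88.3 ± 17.8 TPM in day 7 grafts and 23.8 ± 11.8 TPM in controls. The ranges of Tnfrsf1b, Tnfrsf12a and Ltbr overlapped in the grafts, so their order there is not separated by the spread of samples. The leading ligand of the grafts was Tnfsf12 at 30.1 ± 4.97 TPM in day 3 grafts, 33.4 ± 5.71 TPM in day 7 grafts and 7.12 ± 1.01 TPM in controls. In controls the leading ligand by mean was Ltb, at 1.73 ± 0.772 TPM in day 3 grafts, 2.91 ± 0.795 TPM in day 7 grafts and 81.2 ± 56.8 TPM in controls. By sample, Ltb made up 23% to 64.6% of the summed ligand TPM of controls and Tnfsf12 2.81% to 26.5%. Their order in controls is therefore that of the means. Summed over all 24 receptors, the level was 668 ± 26.9 TPM in day 3 grafts, 615 ± 67.4 TPM in day 7 grafts and 355 ± 124 TPM in controls. Summed over all 17 ligands, it was 95.5 ± 11.9 TPM in day 3 grafts, 100.4 ± 10.7 TPM in day 7 grafts and 138 ± 78.7 TPM in controls. Summed over the 6 TRAFs, it was 73.3 ± 5.5 TPM in day 3 grafts, 87.0 ± 18.2 TPM in day 7 grafts and 128 ± 61.0 TPM in controls. Receptor transcripts were thus more abundant than ligand transcripts in every group, and the summed ligand and TRAF levels of controls ranged over both graft groups. That overlap came from control 4, at 27.8 TPM for ligands and 37.4 TPM for TRAFs. The other controls had 117 to 247 TPM of ligands, above the highest graft at 111 TPM. Their TRAF sums were 119.8 to 208 TPM, above the highest graft at 104.5 TPM.

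**Figure D2:**
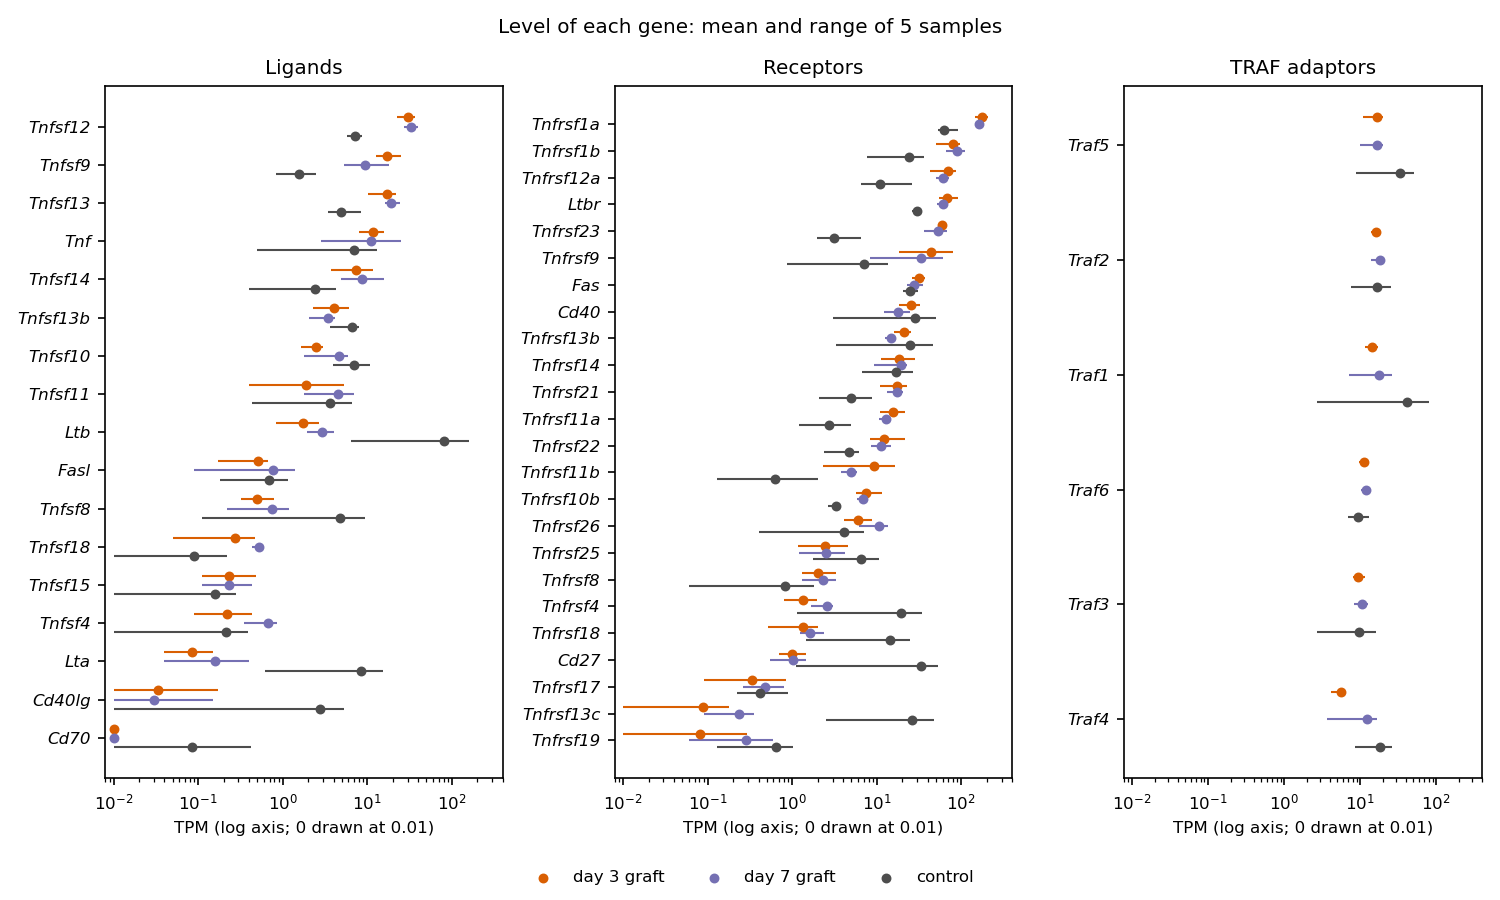
Mean TPM of each gene (point) with the lowest to highest of 5 samples (line) in day 3 grafts, day 7 grafts and controls, on a log axis, ordered by the day 3 mean. By mean, Tnfrsf1a leads the receptors in each group, while Tnfsf12 leads the ligands in grafts and Ltb in controls.

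The TWEAK pair rose together. Tnfsf12 encodes TWEAK, a ligand made largely by macrophages, and Tnfrsf12a encodes its receptor Fn14, which is known to be induced in injured tissue. Tnfsf12 had 18.8, 24, 29.7, 26.1 and 26.8 CPM in day 3 grafts and 21.4, 27.1, 25.4, 30.3 and 23.6 CPM in day 7 grafts. In controls Tnfsf12 had 6.23, 5.98, 5.97, 10.02 and 8.38 CPM. Every graft lay above every control. The log2 fold change was 1.78 ± 0.18 (SE) at day 3 (adjusted p = 2e-06) and 1.8 ± 0.18 at day 7 (adjusted p = 1.51e-06). Tnfrsf12a had 32.6, 44.2, 40.02, 23 and 36.3 CPM in day 3 grafts and 26.8, 23.4, 29.7, 25.9 and 40.1 CPM in day 7 grafts. In controls Tnfrsf12a had 3.56, 4.3, 3.12, 8.04 and 14.9 CPM. The lowest graft value exceeded the highest control, which was control 5, and the change was 2.58 ± 0.34 (SE) at day 3 (adjusted p = 1.91e-05) and 2.32 ± 0.35 at day 7 (adjusted p = 4.81e-05). That is 5.98-fold at day 3 and 4.99-fold at day 7. Control 4 was the highest control for Tnfsf12, and without it the change was 1.88 at day 3 (adjusted p = 1.75e-06) and 1.88 at day 7 (adjusted p = 1.56e-06). Tnfsf12 lies on the minus strand of chromosome 11 at 69686250 to 69695849, and Tnfrsf12a on the minus strand of chromosome 17 at 23675445 to 23677468, both in mm10. Reads of Tnfsf12 and Tnfsf13 are shared with Tnfsfm13, a row of the matrix that spans both genes on the same strand and that averaged 18.1 ± 2.56 CPM in day 3 grafts, 19.3 ± 1.85 CPM in day 7 grafts and 6.07 ± 1.59 CPM in controls, so how the counts divide among these rows is uncertain.

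The 4-1BB pair also rose. Tnfsf9 (4-1BBL) is a ligand of antigen-presenting cells, and Tnfrsf9 (4-1BB) is a costimulatory receptor of activated T cells that other cells can also express. Tnfsf9 had 9.4, 11.2, 13.5, 20.2 and 12 CPM in day 3 grafts and 4.9, 3.63, 6.63, 4.96 and 14.7 CPM in day 7 grafts. In controls Tnfsf9 had 1.47, 1.45, 0.95, 1.09 and 2.13 CPM. All grafts lay above all controls, and day 7 graft 5 stood above the other day 7 grafts. The log2 fold change was 3.22 ± 0.43 (SE) at day 3 (adjusted p = 2.08e-05) and 2.15 ± 0.46 at day 7 (adjusted p = 0.000912). Tnfrsf9 had 22.1, 90.4, 42.6, 50.6 and 58.1 CPM in day 3 grafts and 31.9, 7.5, 62.9, 36.5 and 45.2 CPM in day 7 grafts. In controls Tnfrsf9 had 7.28, 5.4, 11.2, 1.35 and 13.4 CPM. Day 3 grafts did not overlap the controls, whereas day 7 graft 2 fell within them. Its change was 3.01 ± 0.74 (SE) at day 3 (adjusted p = 0.0028) and 2.34 ± 0.75 at day 7 (adjusted p = 0.0137), and without control 4 it was 2.39 at day 3 (adjusted p = 0.00837) and 1.69 at day 7 (adjusted p = 0.0491). Most T and NK cell markers went the other way, with 7 of 9 called lower in the grafts at each day. The T and NK cell sums were 5.3 to 20.7 CPM in day 3 grafts, 9.85 to 32.8 CPM in day 7 grafts and 31.1 to 642 CPM in controls. The NK cell markers Ncr1 and Klrb1c overlapped between grafts and controls. Ncr1 ranged from 0.249 to 3.64 CPM in day 3 grafts, 0.489 to 3.87 CPM in day 7 grafts and 0.853 to 2.35 CPM in controls. Klrb1c ranged from 0.854 to 6.66 CPM in day 3 grafts, 1.99 to 7.65 CPM in day 7 grafts and 2.74 to 4.75 CPM in controls. Tnfsf9 overlaps Gm11110 and Tnfrsf9 overlaps Camta1 on the opposite strand, and whether counting used strand is not stated.

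**Figure D3:**
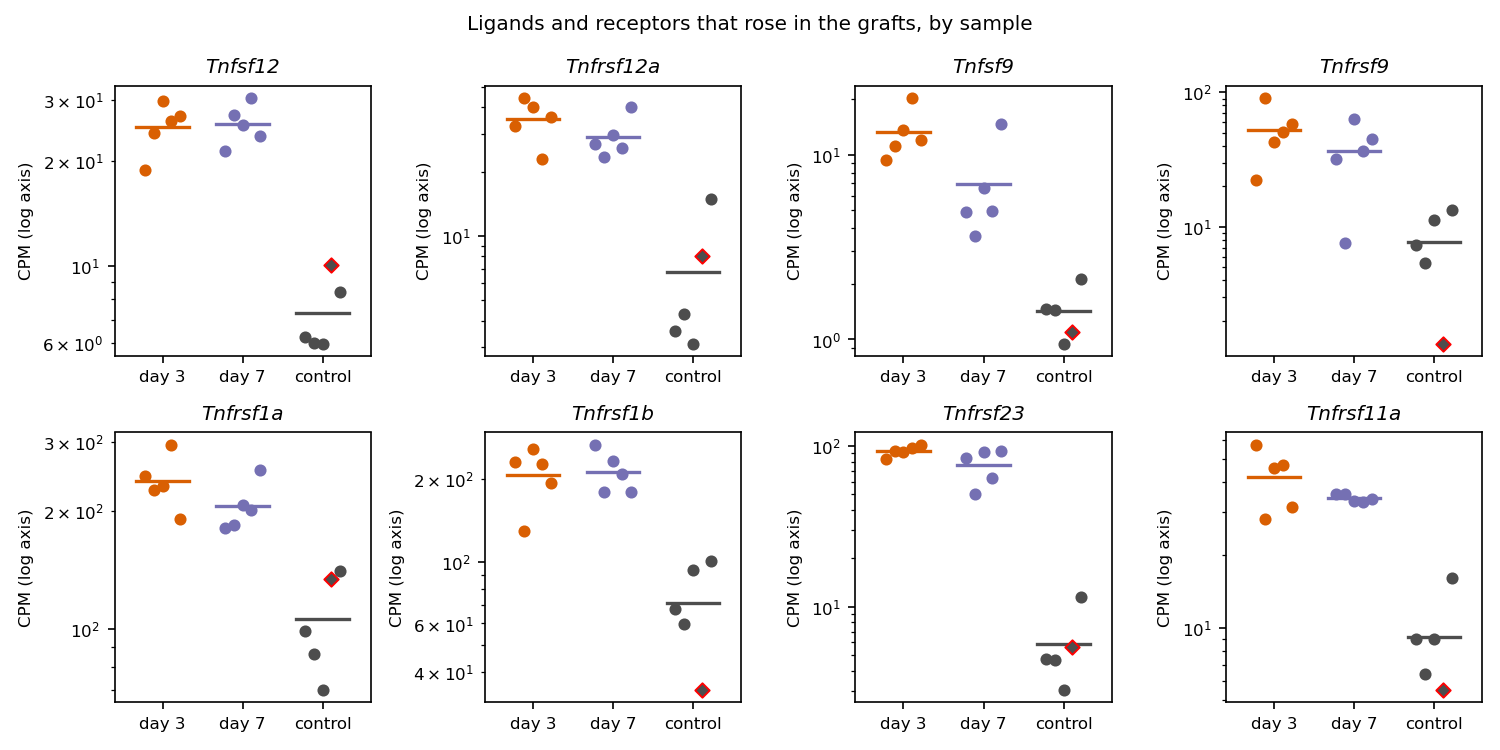
CPM (log axis) of 8 ligands and receptors that rose, 1 point a sample, in day 3 grafts, day 7 grafts and controls, with the group mean as a line and control 4 as a red-edged diamond. Grafts lie above all controls in each panel except Tnfrsf9, where day 7 graft 2 at 7.5 CPM lies among the controls.

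For TNF itself the receptors rose and the ligand was not called. Tnf had 15.5, 7.97, 14.4, 9.93 and 11.9 CPM in day 3 grafts and 23.6, 5.87, 8.7, 9.87 and 3.05 CPM in day 7 grafts. In controls Tnf had 8.85, 8.59, 13.2, 0.884 and 8.2 CPM. The graft values overlapped those of 4 controls, and control 4 lay below every other sample. The log2 fold change was 1.01 ± 0.62 (SE) at day 3 (adjusted p = 0.172) and 0.5 ± 0.65 at day 7 (adjusted p = 0.513). The 95% intervals were -0.32 to 2.33 at day 3 and -0.87 to 1.88 at day 7. They allow a rise of several fold as well as a fall. Without control 4 the estimates were 0.23 at day 3 (adjusted p = 0.646) and -0.3 at day 7 (adjusted p = 0.571). The direction at day 7 thus depended on that library. Tnfrsf1a, which carries a death domain, had 246, 226, 232, 296 and 191 CPM in day 3 grafts and 181, 184, 207, 202 and 255 CPM in day 7 grafts. In controls Tnfrsf1a had 98.9, 86.1, 69.8, 134 and 141 CPM. Tnfrsf1b, which lacks one and prefers membrane-bound TNF, had 229, 129, 256, 227 and 193 CPM in day 3 grafts and 265, 179, 231, 207 and 179 CPM in day 7 grafts. In controls Tnfrsf1b had 67.6, 59.7, 94, 34.5 and 101 CPM. Neither receptor's grafts overlapped the controls. The change of Tnfrsf1a was 1.21 ± 0.19 (SE) at day 3 (adjusted p = 6.83e-05) and 1.0 ± 0.18 at day 7 (adjusted p = 0.000309). That of Tnfrsf1b was 1.6 ± 0.26 (SE) at day 3 (adjusted p = 0.000128) and 1.65 ± 0.27 at day 7 (adjusted p = 9.56e-05), and without control 4 it was 1.33 at day 3 (adjusted p = 5.91e-05) and 1.36 at day 7 (adjusted p = 5.15e-05).

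The TRAIL axis showed a lower ligand and higher receptors. Tnfsf10 encodes TRAIL, and the mouse has 1 death receptor for it, Tnfrsf10b, beside the decoy receptors Tnfrsf22 and Tnfrsf23. Tnfsf10 had 10.1, 8.15, 6.79, 5.9 and 8.3 CPM in day 3 grafts and 15.1, 17.1, 15, 17.2 and 5.49 CPM in day 7 grafts. In controls Tnfsf10 had 30.02, 26.4, 37, 23.5 and 22.7 CPM. All grafts lay below all controls, control 4 included, and the change was -1.83 ± 0.29 (SE) at day 3 (adjusted p = 8.37e-05) and -1.08 ± 0.26 at day 7 (adjusted p = 0.00224). Tnfrsf23 had 83.6, 93.7, 92.3, 97.4 and 102 CPM in day 3 grafts and 84.6, 50.5, 92.3, 63.2 and 93.3 CPM in day 7 grafts. In controls Tnfrsf23 had 4.77, 4.64, 3.03, 5.6 and 11.5 CPM. It showed the largest rise of the family at both days, 17.4-fold at day 3 and 13.9-fold at day 7, with log2 values of 4.12 ± 0.28 (SE) at day 3 (adjusted p = 1.29e-07) and 3.8 ± 0.28 at day 7 (adjusted p = 1.45e-07). The nearby Tnfrsf22 ranged from 12.5 to 36.1 CPM in day 3 grafts, 12 to 20.7 CPM in day 7 grafts and 7.58 to 10.1 CPM in controls, with no overlap between grafts and controls, and its change was 1.06 ± 0.27 (SE) at day 3 (adjusted p = 0.00337) and 0.78 ± 0.27 at day 7 (adjusted p = 0.0228). Without control 4 the change of Tnfrsf22 was 0.95 at day 3 (adjusted p = 0.0112) and 0.64 at day 7 (adjusted p = 0.0736), so its day 7 call was lost. Tnfrsf10b ranged from 11.2 to 23.7 CPM in day 3 grafts, 11.5 to 14.7 CPM in day 7 grafts and 6.87 to 9.34 CPM in controls, with no overlap, and its change was 0.9 ± 0.19 (SE) at day 3 (adjusted p = 0.00108) and 0.72 ± 0.2 at day 7 (adjusted p = 0.00576). Tnfrsf26, the third gene of the same chromosome 7 cluster, ranged from 8.26 to 18.9 CPM in day 3 grafts, 11.6 to 25.8 CPM in day 7 grafts and 1.47 to 14.6 CPM in controls and was called at day 7, with 0.73 ± 0.49 (SE) at day 3 (adjusted p = 0.212) and 1.42 ± 0.47 at day 7 (adjusted p = 0.0166). Control 4 had 1.47 CPM of Tnfrsf26, against 9.32 to 14.6 CPM in the other controls, and without it the change was 0.05 at day 3 (adjusted p = 0.887) and 0.72 at day 7 (adjusted p = 0.0344). Tnfrsf22, Tnfrsf23 and Tnfrsf26 are close relatives in tandem, and reads of such paralogues can be divided between them with error.

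The RANK axis had higher receptors, including the soluble decoy. Tnfrsf11a encodes RANK, Tnfrsf11b encodes osteoprotegerin, which traps the ligand, and Tnfsf11 encodes that ligand, RANKL. Tnfrsf11a had 57.2, 28.1, 45.9, 47.2 and 31.5 CPM in day 3 grafts and 35.8, 35.7, 33.6, 33.1 and 34.2 CPM in day 7 grafts. In controls Tnfrsf11a had 9.01, 6.44, 9.0, 5.51 and 16 CPM. No graft overlapped a control, and the change was 2.24 ± 0.26 (SE) at day 3 (adjusted p = 5.68e-06) and 2.01 ± 0.26 at day 7 (adjusted p = 1.37e-05). Tnfrsf11b had 24.3, 6.37, 20.2, 4.57 and 29.6 CPM in day 3 grafts and 9.17, 6.33, 9.24, 7.27 and 11.5 CPM in day 7 grafts. In controls Tnfrsf11b had 0.838, 0.29, 0.814, 0.716 and 4.22 CPM. The grafts again lay above all controls, and the day 3 grafts split into 3 high libraries and 2 low ones, grafts 2 and 4. Its change was 3.77 ± 0.84 (SE) at day 3 (adjusted p = 0.0014) and 3.16 ± 0.86 at day 7 (adjusted p = 0.00536). Without controls 2, 4 and 5 the day 7 change of Tnfrsf11b was 3.30 with an adjusted p of 0.0681. Tnfsf11 ranged from 0.59 to 8.13 CPM in day 3 grafts, 2.71 to 9.39 CPM in day 7 grafts and 1.09 to 9.54 CPM in controls, was not called, and had a change of -1.25 ± 0.73 (SE) at day 3 (adjusted p = 0.148) and 0.17 ± 0.62 at day 7 (adjusted p = 0.819). Without control 4 the day 3 value of Tnfsf11 was -1.85 (adjusted p = 0.0139), which is a call of lower, and its day 7 value turned to -0.46 (adjusted p = 0.428).

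The remaining genes that rose at both days were the ligands Tnfsf13 and Tnfsf14 and the receptors Ltbr, Tnfrsf21 and Tnfrsf8. Tnfsf13, or APRIL, which supports plasma cells, ranged from 8.61 to 19.2 CPM in day 3 grafts, 12.6 to 18 CPM in day 7 grafts and 3.82 to 8.15 CPM in controls, and its change was 1.5 ± 0.26 (SE) at day 3 (adjusted p = 0.000174) and 1.61 ± 0.25 at day 7 (adjusted p = 8.19e-05). Tnfsf14, or LIGHT, a ligand of Ltbr and Tnfrsf14, had 9.56, 4.73, 9.91, 14.3 and 4.3 CPM in day 3 grafts and 11.2, 5.27, 7.47, 4.96 and 19.4 CPM in day 7 grafts. In controls Tnfsf14 had 2.78, 1.86, 4.61, 0.80 and 5.64 CPM. Controls 3 and 5 overlapped the grafts, and the change was 1.59 ± 0.58 (SE) at day 3 (adjusted p = 0.0275) and 1.73 ± 0.57 at day 7 (adjusted p = 0.0169). Without control 4 Tnfsf14 was not called, at 1.1 at day 3 (adjusted p = 0.0963) and 1.21 at day 7 (adjusted p = 0.0661). Ltbr, the lymphotoxin beta receptor of stromal and myeloid cells, ranged from 71.8 to 94.4 CPM in day 3 grafts, 64.5 to 81.6 CPM in day 7 grafts and 35 to 67.2 CPM in controls, which overlapped at day 7 alone, with a change of 0.78 ± 0.14 (SE) at day 3 (adjusted p = 0.000299) and 0.6 ± 0.14 at day 7 (adjusted p = 0.00217). Tnfrsf21, or death receptor 6, had 52.8, 25.8, 47, 45.7 and 37.1 CPM in day 3 grafts and 40.04, 33, 42, 43.3 and 33.9 CPM in day 7 grafts. In controls Tnfrsf21 had 15.2, 11.7, 11.9, 8.5 and 23.7 CPM. Its grafts lay above all controls, and the change was 1.6 ± 0.25 (SE) at day 3 (adjusted p = 6.69e-05) and 1.52 ± 0.25 at day 7 (adjusted p = 0.000101). Tnfrsf8, or CD30, ranged from 2.85 to 7.58 CPM in day 3 grafts, 2.73 to 6.66 CPM in day 7 grafts and 0.253 to 4.12 CPM in controls, with overlap. Its change was 1.55 ± 0.56 (SE) at day 3 (adjusted p = 0.0271) and 1.63 ± 0.56 at day 7 (adjusted p = 0.0194), and without control 4 it was 0.84 at day 3 (adjusted p = 0.0898) and 0.9 at day 7 (adjusted p = 0.068), with no call.

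These rises came beside rises in markers of cell types known to express several of the genes, and the part of cell numbers in them was not tested. Besides the 8 macrophage markers, 5 of 7 neutrophil markers were called higher at each day, with sums of 77.7 to 458 CPM in day 3 grafts, 154 to 938 CPM in day 7 grafts and 19.1 to 176 CPM in controls. Fibroblast markers were called higher for 4 of 7 at day 3 and 5 of 7 at day 7, with sums of 12427 to 26658 CPM in day 3 grafts, 25634 to 30378 CPM in day 7 grafts and 1564 to 7335 CPM in controls, while the fibroblast marker Dpp4 was called lower at day 7, at -1.14 (adjusted p = 0.00447). Endothelial markers were called higher for 4 of 7 at day 3 and 5 of 7 at day 7, with sums of 440.5 to 1417 CPM in day 3 grafts, 606 to 1177 CPM in day 7 grafts and 431 to 577 CPM in controls. No macrophage, fibroblast or endothelial marker was at 0 in any library, and the neutrophil marker Ly6g was at 0 in 3 controls. Without control 4, 4 of 7 neutrophil markers were called higher at day 3 and 3 of 7 at day 7, whereas the counts for macrophage, fibroblast and endothelial markers were as given.

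Several genes best known from lymphocytes and lymph nodes fell. Ltb encodes lymphotoxin beta, which with lymphotoxin alpha forms the membrane ligand that organises lymphoid tissue. Ltb had 1.08, 0.569, 1.6, 0.792 and 1.75 CPM in day 3 grafts and 2.02, 1.5, 1.74, 2.5 and 1.43 CPM in day 7 grafts. In controls Ltb had 77.5, 78.3, 108, 7.58 and 40.7 CPM. Every graft was below every control, and control 4 was nearest to the grafts. The change was -5.4 ± 1.03 (SE) at day 3 (adjusted p = 0.000425) and -4.66 ± 0.9 at day 7 (adjusted p = 0.000445), and without control 4 it was -6.1 at day 3 (adjusted p = 1.34e-07) and -5.38 at day 7 (adjusted p = 9.06e-08). Lta, lymphotoxin alpha, had 0.040, 0.107, 0.127, 0.036 and 0.0381 CPM in day 3 grafts and 0.15, 0.0333, 0.30, 0.0472 and 0.0752 CPM in day 7 grafts. In controls Lta had 9.59, 10.7, 12.8, 0.884 and 5.4 CPM. It too did not overlap, with a change of -6.1 ± 1.21 (SE) at day 3 (adjusted p = 0.000571) and -5.59 ± 1.12 at day 7 (adjusted p = 0.000611), and without control 4 of -6.86 at day 3 (adjusted p = 5.51e-07) and -6.37 at day 7 (adjusted p = 4.51e-07). Tnf lies between Ltb and Lta on chromosome 17, where the 3 genes occupy 35194439 to 35205351 in mm10, and of the 3 only Tnf was not called.

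Tnfrsf13c encodes the BAFF receptor of B cells. It had 0.040, 0.213, 0.127, 0 and 0.152 CPM in day 3 grafts and 0.337, 0.10, 0.21, 0.236 and 0.451 CPM in day 7 grafts. In controls Tnfrsf13c had 42.1, 40.9, 55.8, 5.3 and 34.8 CPM. Control 4 at 5.3 CPM, the lowest control, stood above the highest graft at 0.451 CPM, and the change of -8.25 ± 1.58 (SE) at day 3 (adjusted p = 0.000438) and -6.76 ± 1.25 at day 7 (adjusted p = 0.000304) was the largest fall of the family. The size of that fold is imprecise, since graft 4 of day 3 was at 0 and the other grafts were near 0, and it was -7.63 at day 3 without graft 4. Without control 4 it was -8.91 at day 3 (adjusted p = 6.63e-08) and -7.45 at day 7 (adjusted p = 2.74e-08). Cd27, a costimulatory receptor of T cells and memory B cells, had 0.80, 0.391, 1.1, 0.396 and 0.761 CPM in day 3 grafts and 0.823, 0.467, 1.2, 1.04 and 0.677 CPM in day 7 grafts. In controls Cd27 had 34.2, 37.9, 37.6, 1.26 and 23.6 CPM. The groups did not overlap, although control 4 lay close to the highest graft. Its change was -4.64 ± 1.37 (SE) at day 3 (adjusted p = 0.00912) and -4.3 ± 1.29 at day 7 (adjusted p = 0.00963), and without control 4 it was -5.69 at day 3 (adjusted p = 2.9e-08) and -5.38 at day 7 (adjusted p = 2.05e-08). Cd27 overlaps Vamp1 on the opposite strand, as Tnfrsf18 does Gm16008, and whether counting used strand is not stated.

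Tnfrsf4 (OX40) and Tnfrsf18 (GITR) are costimulatory receptors of activated and regulatory T cells and are neighbours on chromosome 4. Tnfrsf4 had 0.96, 0.747, 0.717, 0.396 and 0.761 CPM in day 3 grafts and 0.936, 0.70, 1.35, 1.27 and 1.69 CPM in day 7 grafts. In controls Tnfrsf4 had 12, 8.82, 19.2, 0.884 and 18 CPM. Control 4 lay within the grafts, and the other controls lay far above them. The change of Tnfrsf4 was -3.46 ± 0.97 (SE) at day 3 (adjusted p = 0.00658) and -2.75 ± 0.86 at day 7 (adjusted p = 0.0127), and without control 4 it was -4.36 at day 3 (adjusted p = 3.56e-07) and -3.68 at day 7 (adjusted p = 4.15e-07). Tnfrsf18 had 0.76, 0.356, 1.31, 0.648 and 1.33 CPM in day 3 grafts and 0.786, 0.80, 1.2, 1.42 and 0.978 CPM in day 7 grafts. In controls Tnfrsf18 had 11.7, 9.52, 16.7, 1.64 and 14.1 CPM. No graft reached control 4, the lowest control, and the change was -3.36 ± 0.74 (SE) at day 3 (adjusted p = 0.0012) and -3.01 ± 0.69 at day 7 (adjusted p = 0.00167). Without control 4 it was -4.05 at day 3 (adjusted p = 2.1e-07) and -3.72 at day 7 (adjusted p = 2.08e-07). Tnfsf8 (CD30 ligand) had 1.96, 0.854, 0.843, 1.01 and 1.75 CPM in day 3 grafts and 2.06, 2.2, 1.23, 2.69 and 0.602 CPM in day 7 grafts. In controls Tnfsf8 had 13.7, 13.4, 24.5, 0.505 and 15.8 CPM. Control 4 was below all grafts, and the change was -2.67 ± 1.09 (SE) at day 3 (adjusted p = 0.0447) and -2.33 ± 1.02 at day 7 (adjusted p = 0.0608). Without control 4 the Tnfsf8 values were -3.79 at day 3 (adjusted p = 1.38e-06) and -3.48 at day 7 (adjusted p = 1.41e-06), whereas the day 3 call was lost on leaving out any 1 of the other 4 controls, any 1 day 3 graft, or any of day 7 grafts 1 to 4. Tnfrsf25 (death receptor 3 of T cells) had 0.72, 2.13, 0.717, 1.04 and 1.75 CPM in day 3 grafts and 0.936, 1.33, 1.38, 1.37 and 0.752 CPM in day 7 grafts. In controls Tnfrsf25 had 4.35, 6.85, 6.15, 1.77 and 3.41 CPM. Control 4 was within the day 3 grafts and just above the day 7 grafts, and the change was -1.75 ± 0.41 (SE) at day 3 (adjusted p = 0.0019) and -1.81 ± 0.41 at day 7 (adjusted p = 0.00144).

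**Figure D4:**
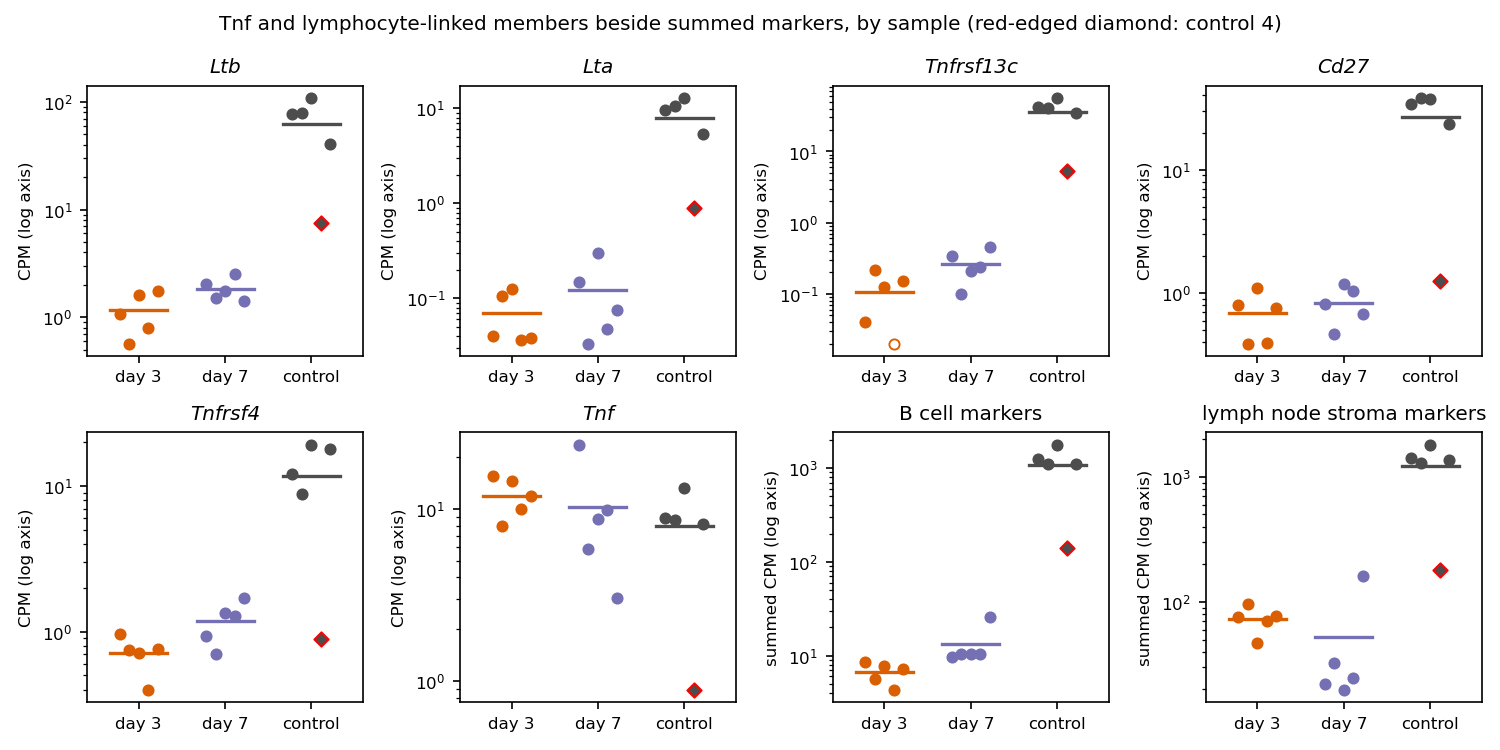
CPM (log axis) of Ltb, Lta, Tnfrsf13c, Cd27, Tnfrsf4 and Tnf, and summed CPM of B cell and lymph node stroma markers, 1 point a sample, with group means as lines, control 4 as a red-edged diamond and a library at 0 as an open point at 0.02. In each panel control 4 is the lowest control, for example 7.58 CPM for Ltb and 181 CPM for the lymph node stroma sum.

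The lymphoid markers moved with these genes. In the grafts 7 of 7 B cell markers and 8 of 8 lymph node stroma markers were called lower at each day, and 5 of 6 dendritic cell markers were called lower. The other dendritic cell marker, Itgax, was called higher at day 7, at 2.01 (adjusted p = 0.00613), and the summed dendritic cell level overlapped between groups, at 28.6 to 61 CPM in day 3 grafts, 29.3 to 114 CPM in day 7 grafts and 48 to 197 CPM in controls. Madcam1, a marker of lymph node vessels, was at 0 in all 5 day 3 grafts, Glycam1 was at 0 in 4 day 3 grafts and 1 day 7 graft, and Ccl21a was at 0 in 1 day 3 graft. Most of the lymph node stroma sum of the grafts was Clu and Cxcl13. Clu had 26.4 to 65 CPM at day 3 and 14.6 to 35.5 CPM at day 7, and Cxcl13 7.09 to 46.4 and 0.236 to 124 CPM. Whether this list, which includes Cr2 and Fcer2a, and the B cell list follow separate cells was not tested. Among the controls, control 4 had 142 CPM of B cell markers, against 1107 to 1776 CPM in the others, and 31.1 CPM of T and NK cell markers, against 369 to 642 CPM in the others. In 18 of the 31 genes in which control 4 was the lowest control, the mean of the other controls was over 5 times that of control 4. This was not counted over all genes either. Those 18 include Ltb, Lta, Cd27, Tnfrsf13c, Tnfrsf4, Tnfrsf18, Tnfsf8 and Tnf. How much of the differences in these genes follows the amount of lymphoid tissue in a control sample was not tested. Measured against control 4 alone, Ltb, Lta, Cd27, Tnfrsf18 and Tnfrsf13c were still lower in every graft of both days, whereas Tnfsf8 was higher in every graft.

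Of the remaining genes known for B cell help, Tnfsf13b fell at both days, while Tnfrsf13b and Cd40 were not called. Tnfsf13b, or BAFF, a ligand made mostly by myeloid and stromal cells, had 2.72, 5.3, 2.78, 5.11 and 4.57 CPM in day 3 grafts and 2.81, 3.83, 3.0, 4.2 and 4.29 CPM in day 7 grafts. In controls Tnfsf13b had 9.32, 8.13, 7.82, 5.89 and 8.91 CPM. All grafts lay below all controls, control 4 included, and the change was -0.98 ± 0.22 (SE) at day 3 (adjusted p = 0.00127) and -1.15 ± 0.22 at day 7 (adjusted p = 0.000387). Tnfrsf13b (TACI), a receptor for BAFF and APRIL, ranged from 25.8 to 39.2 CPM in day 3 grafts, 20.5 to 23.5 CPM in day 7 grafts and 8.33 to 64.1 CPM in controls and was not called, at -0.05 ± 0.4 (SE) at day 3 (adjusted p = 0.923) and -0.62 ± 0.41 at day 7 (adjusted p = 0.196). Without control 4 it was called lower, at -0.61 at day 3 (adjusted p = 0.00202) and -1.21 at day 7 (adjusted p = 7.87e-06). Cd40, the receptor that antigen-presenting cells use to receive T cell help, ranged from 14.9 to 23.8 CPM in day 3 grafts, 10.3 to 16.1 CPM in day 7 grafts and 4.92 to 35.5 CPM in controls and behaved likewise, with no call at 0.03 ± 0.39 (SE) at day 3 (adjusted p = 0.946) and -0.62 ± 0.42 at day 7 (adjusted p = 0.211) and a call of lower without control 4 at -0.51 at day 3 (adjusted p = 0.0275) and -1.19 at day 7 (adjusted p = 0.000138). Tnfrsf17 (BCMA), Cd40lg and Cd70 did not pass the filter. Tnfrsf17 ranged from 0.0381 to 0.356 CPM in day 3 grafts, 0.0944 to 0.30 CPM in day 7 grafts and 0.0904 to 0.631 CPM in controls, Cd40lg ranged from 0 to 0.12 CPM in day 3 grafts, 0 to 0.10 CPM in day 7 grafts and 0 to 3.89 CPM in controls, and Cd70 was detected in a single control at 0.181 CPM.

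The costimulatory ligands Tnfsf4 (OX40 ligand) and Tnfsf18 (GITR ligand), which are neighbours on chromosome 1, were low in all samples. Tnfsf4 ranged from 0.108 to 0.495 CPM in day 3 grafts, 0.367 to 0.90 CPM in day 7 grafts and 0 to 0.452 CPM in controls, and Tnfsf18 ranged from 0.072 to 0.60 CPM in day 3 grafts, 0.51 to 0.752 CPM in day 7 grafts and 0 to 0.332 CPM in controls. Tnfsf4 was called at day 7 only, with 0.2 ± 0.76 (SE) at day 3 (adjusted p = 0.832) and 1.81 ± 0.68 at day 7 (adjusted p = 0.0322), and without control 4 the change was -0.71 at day 3 (adjusted p = 0.22) and 0.87 at day 7 (adjusted p = 0.0922), which is no call at either day. Tnfsf18 was called at day 7, with 1.47 ± 0.66 (SE) at day 3 (adjusted p = 0.0668) and 2.56 ± 0.62 at day 7 (adjusted p = 0.00255). Their receptors Tnfrsf4 and Tnfrsf18 fell, as given above.

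Fas, the death receptor that drives activation-induced death of lymphocytes, and its ligand Fasl were not called. Fas ranged from 19.9 to 31.1 CPM in day 3 grafts, 15.5 to 25.5 CPM in day 7 grafts and 20.4 to 38.3 CPM in controls, and the interval of its log2 change was -0.4 to 0.44 at day 3 and -0.73 to 0.12 at day 7. Fasl ranged from 0.144 to 0.843 CPM in day 3 grafts, 0.113 to 1.51 CPM in day 7 grafts and 0.379 to 1.4 CPM in controls, with wider intervals of -2.32 to 0.57 at day 3 and -1.63 to 1.08 at day 7. Tnfsf15 (TL1A), the ligand of Tnfrsf25, ranged from 0.252 to 1.04 CPM in day 3 grafts, 0.263 to 0.898 CPM in day 7 grafts and 0.0421 to 0.755 CPM in controls with no call, at 0.6 ± 0.63 (SE) at day 3 (adjusted p = 0.425) and 0.53 ± 0.63 at day 7 (adjusted p = 0.48), and without control 4 its sign turned, at -0.05 at day 3 (adjusted p = 0.939) and -0.14 at day 7 (adjusted p = 0.818). Tnfrsf14 (HVEM), a receptor for LIGHT, ranged from 5.33 to 12.3 CPM in day 3 grafts, 5.23 to 10.8 CPM in day 7 grafts and 5.3 to 12.2 CPM in controls with no call. Tnfrsf19 (TROY), a receptor of epithelial and neural progenitors, ranged from 0 to 0.60 CPM in day 3 grafts, 0.142 to 1.2 CPM in day 7 grafts and 0.463 to 2.61 CPM in controls and was called lower at day 3, with -3.97 ± 0.84 (SE) at day 3 (adjusted p = 0.000979) and -1.43 ± 0.62 at day 7 (adjusted p = 0.0594). Without day 3 graft 1, the highest graft of that day, the day 3 value of Tnfrsf19 was -4.61, and without control 4 the day 7 value was -1.96 (adjusted p = 0.00334).

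Among the TRAFs, Traf4 and Traf5 fell. Traf4, a TRAF expressed in epithelial and developing tissue, had 7.56, 8.4, 5.95, 9.18 and 8.14 CPM in day 3 grafts and 13.7, 20.9, 19.1, 17.3 and 5.38 CPM in day 7 grafts. In controls Traf4 had 45.1, 37.4, 28.9, 21.6 and 20.7 CPM. Day 3 grafts did not overlap the controls and day 7 grafts reached the lowest of them, with a change of -1.89 ± 0.35 (SE) at day 3 (adjusted p = 0.000346) and -1.05 ± 0.31 at day 7 (adjusted p = 0.00909). Traf5, an adaptor of several costimulatory receptors, had 8.2, 8.97, 9.03, 6.73 and 11.2 CPM in day 3 grafts and 7.15, 9.6, 9.09, 9.35 and 5.42 CPM in day 7 grafts. In controls Traf5 had 23.3, 24.3, 30.3, 9.05 and 19.5 CPM. Control 4 lay within the grafts, and the change was -1.16 ± 0.29 (SE) at day 3 (adjusted p = 0.00325) and -1.29 ± 0.29 at day 7 (adjusted p = 0.00163). On log2(TPM + 1) Traf5 was not called, at -0.81 for both days with adjusted p of 0.0595 at day 3 and 0.056 at day 7. Traf1, an NF-kB target of activated lymphocytes, ranged from 13.4 to 21 CPM in day 3 grafts, 9.21 to 26.7 CPM in day 7 grafts and 6.23 to 97.6 CPM in controls and was not called with all controls, at -1.31 ± 0.6 (SE) at day 3 (adjusted p = 0.0726) and -1.23 ± 0.6 at day 7 (adjusted p = 0.0876). Without control 4 Traf1 was called lower, at -2.04 at day 3 (adjusted p = 2.64e-05) and -1.98 at day 7 (adjusted p = 2.95e-05). Traf2 and Traf3, which together restrain the alternative NF-kB pathway, were likewise not called with all controls and called lower without control 4. The values of Traf2 were -0.3 ± 0.14 (SE) at day 3 (adjusted p = 0.0843) and -0.19 ± 0.14 at day 7 (adjusted p = 0.272) with all controls and -0.48 at day 3 (adjusted p = 0.00121) and -0.39 at day 7 (adjusted p = 0.00446) without control 4. The values of Traf3 were -0.18 ± 0.26 (SE) at day 3 (adjusted p = 0.563) and -0.16 ± 0.26 at day 7 (adjusted p = 0.597) with all controls and -0.51 at day 3 (adjusted p = 0.00974) and -0.52 at day 7 (adjusted p = 0.0084) without control 4. Traf6, which links receptors of this family and Toll-like receptors to NF-kB, ranged from 39.2 to 55.1 CPM in day 3 grafts, 36.9 to 60.4 CPM in day 7 grafts and 42.8 to 50.1 CPM in controls, and the interval of its log2 change was -0.26 to 0.29 at day 3 and -0.32 to 0.23 at day 7.

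Between the 2 graft days no family member was called, where 4.88% of all 16051 tested genes were called, 3.18% higher and 1.71% lower at day 7. At an unadjusted p under 0.05 there were 5 members, against 20.2% of all genes. Limma-trend on log2(TPM + 1) called 1, Tnfsf4 at 0.44 (adjusted p = 0.0464), against 3.17% of all genes higher and 1.24% lower. Tnfsf9 was nearest to a call, at -1.07 ± 0.3 for day 7 against day 3 (adjusted p = 0.0527). Without day 7 graft 5 Tnfsf9 was called lower, at -1.38 (adjusted p = 0.0037), and Traf4 at 1.17 (adjusted p = 0.0117) and Tnfsf10 at 1.06 (adjusted p = 0.00276) were called higher. The other 4 were Tnfrsf19 at 2.54 ± 0.89 (adjusted p = 0.121), Tnfsf4 at 1.61 ± 0.65 (adjusted p = 0.175), Traf4 at 0.84 ± 0.37 (adjusted p = 0.214) and Tnfsf10 at 0.75 ± 0.3 (adjusted p = 0.175). Leaving out control 4, which enters this comparison through the shared fit alone, gave 2 higher calls, Tnfsf4 and Tnfrsf19, and 3 lower calls, Tnfrsf13b, Cd40 and Tnfsf9. That fit called 5.14% of all genes higher and 4.28% lower. Tnfrsf13b was the sole member whose day 7 and day 3 grafts did not overlap, at 21.9, 23.5, 22, 20.6 and 20.5 CPM in day 7 grafts and 39.2, 25.8, 36.9, 33.8 and 28.4 CPM in day 3 grafts, where 3.32% of all genes were lower and 4.56% higher in that way.

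Pairs of ligand and receptor were read together from a list of 23 pairings. The list is partial and leaves out Tnfsf15 with Tnfrsf25 and Tnfsf10 with the decoys Tnfrsf22 and Tnfrsf23. Of all tested genes 30.1% were called higher and 30.3% lower at day 3, and 32.2% higher and 28.4% lower at day 7. No such share was computed for pairs of genes. At day 3 both partners rose in 3 pairings, namely Tnfsf12 with Tnfrsf12a, Tnfsf9 with Tnfrsf9 and Tnfsf14 with Ltbr. In 5 pairings the ligand fell and the receptor rose, namely Lta with Tnfrsf1a, Lta with Tnfrsf1b, Ltb with Ltbr, Tnfsf8 with Tnfrsf8 and Tnfsf10 with Tnfrsf10b. Both partners fell in 1 pairing, Tnfsf13b with Tnfrsf13c. At day 7 the same 3 pairings had both partners higher, and Tnfsf4 with Tnfrsf4 and Tnfsf18 with Tnfrsf18 had a higher ligand and a lower receptor. In 4 pairings at day 7 the ligand fell and the receptor rose, namely those of day 3 other than Tnfsf8 with Tnfrsf8, and Tnfsf13b with Tnfrsf13c again fell together. With control 4 left out, the pairings with both partners higher were 2 at each day, since Tnfsf14 was no longer called, and those with a lower ligand and a higher receptor were 6 at day 3, with Tnfsf11 and its receptors Tnfrsf11a and Tnfrsf11b in and Tnfsf8 with Tnfrsf8 out, and the same 4 at day 7. A higher ligand and a lower receptor were then found in Tnfsf13 with Tnfrsf13b at each day and in Tnfsf18 with Tnfrsf18 at day 7, and no longer in Tnfsf4 with Tnfrsf4. Both partners fell in 2 pairings at each day, Tnfsf13b with Tnfrsf13c and with Tnfrsf13b. Several genes stand in more than 1 pairing, and no test was made of the pairings.

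Other genes of the pathway, which are not in the family, were read as 6 lists of 61 genes, 60 of which were tested. Of these, 17 rose and 12 fell at day 3 and 13 rose and 13 fell at day 7, with medians of 0.04 and -0.10. These are 28.3% higher and 20% lower at day 3 and 21.7% in each direction at day 7, against 30.1% and 30.3% of all genes at day 3 and 32.2% and 28.4% at day 7. Without control 4, 15 rose and 20 fell at day 3 and 10 rose and 26 fell at day 7, against the 30.2% and 33.2% of all genes at day 3 and 30.9% and 33.2% at day 7 in that fit. The counts of the separate lists below read against the same shares. Among 11 death and adaptor proteins 6 rose and 1 fell at day 3, and 5 rose and 1 fell at day 7, or 6 and 2 at day 3 and 4 and 3 at day 7 without control 4. The necroptosis kinase Ripk3 changed by 2.27 at day 3 (adjusted p = 3.02e-05) and 1.95 at day 7 (adjusted p = 0.000105), and Mlkl, the membrane-permeabilising protein that Ripk3 phosphorylates, by 1.99 at day 3 (adjusted p = 8.91e-07) and 1.45 at day 7 (adjusted p = 1.21e-05). Casp8, the initiator caspase of death receptors, changed by 0.85 at day 3 (adjusted p = 0.000119) and 0.61 at day 7 (adjusted p = 0.00168), and Ripk1 by 0.94 at day 3 (adjusted p = 1.28e-05) and 0.93 at day 7 (adjusted p = 1.24e-05). The kinase Map3k5 (ASK1) was the gene of that list that fell, with -1.22 at day 3 (adjusted p = 0.000105) and -1.28 at day 7 (adjusted p = 6.72e-05). Fadd, the adaptor that links death receptors to Casp8, was not called, at -0.09 at day 3 (adjusted p = 0.517) and -0.1 at day 7 (adjusted p = 0.462).

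Among 15 regulators of the inhibitor of apoptosis and ubiquitin class, 1 rose and 6 fell at day 3, and 1 rose and 7 fell at day 7, or 1 and 9 at day 3 and 1 and 10 at day 7 without control 4. Birc2, an inhibitor of apoptosis that ubiquitinates Ripk1, changed by -1.26 at day 3 (adjusted p = 2.09e-05) and -1.09 at day 7 (adjusted p = 7.04e-05). The gene of that list that rose was Tnip2, a partner of A20, by 0.65 at day 3 (adjusted p = 0.000108) and 0.43 at day 7 (adjusted p = 0.00268). Traf3ip3, which is known from lymphocytes, changed by -4.08 at day 3 (adjusted p = 0.00222) and -3.19 at day 7 (adjusted p = 0.00411), and without control 4 by -4.92 at day 3 (adjusted p = 1.33e-08) and -4.06 at day 7 (adjusted p = 1.5e-08). Tnfaip3 (A20), the feedback inhibitor of NF-kB, was not called, at 0.09 at day 3 (adjusted p = 0.837) and -0.01 at day 7 (adjusted p = 0.977), nor was it without control 4, at -0.33 at day 3 (adjusted p = 0.194) and -0.46 at day 7 (adjusted p = 0.0766). Among 15 kinases 6 rose and 3 fell at day 3, and 4 rose and 4 fell at day 7, or 5 and 4 at day 3 and 3 and 5 at day 7 without control 4, and Map3k8, a kinase upstream of ERK, had the largest rise at each day, at 1.3 at day 3 (adjusted p = 0.000516) and 0.9 at day 7 (adjusted p = 0.00746). Ikbke, a kinase related to the IKK subunits, changed by 0.97 at day 3 (adjusted p = 0.0131) and 0.49 at day 7 (adjusted p = 0.169). Tab3, a partner of the kinase TAK1, had the largest fall at each day, at -0.81 at day 3 (adjusted p = 3.83e-05) and -0.98 at day 7 (adjusted p = 6.65e-06). Of 10 NF-kB subunits and inhibitors only Bcl3, at 0.72, was called higher and only Rel, at -0.97, lower at day 3, and none was called at day 7, where 2 had an unadjusted p under 0.05. Without control 4 none of these 10 was called higher, and 3 were called lower at day 3 and 6 at day 7, including Rel at -1.47 at day 3 (adjusted p = 2.57e-05) and -1.41 at day 7 (adjusted p = 3.25e-05). Of the 4 genes of TNF shedding, the protease Adam17, which sheds TNF and its receptors, changed by 1.31 at day 3 (adjusted p = 4.08e-06) and 1.23 at day 7 (adjusted p = 6.11e-06). Of the 6 relatives whose symbols the choice did not take in, Eda2r, a receptor for ectodysplasin, changed by 1.61 at day 3 (adjusted p = 0.00104) and 1.77 at day 7 (adjusted p = 0.000414), and Edaradd, the adaptor of another ectodysplasin receptor, by -2.58 at day 3 (adjusted p = 0.00367) and -2.29 at day 7 (adjusted p = 0.00565). The change of Edaradd without control 4 was -3.28 at day 3 (adjusted p = 8.41e-08) and -3.03 at day 7 (adjusted p = 8.75e-08).

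**Figure D5:**
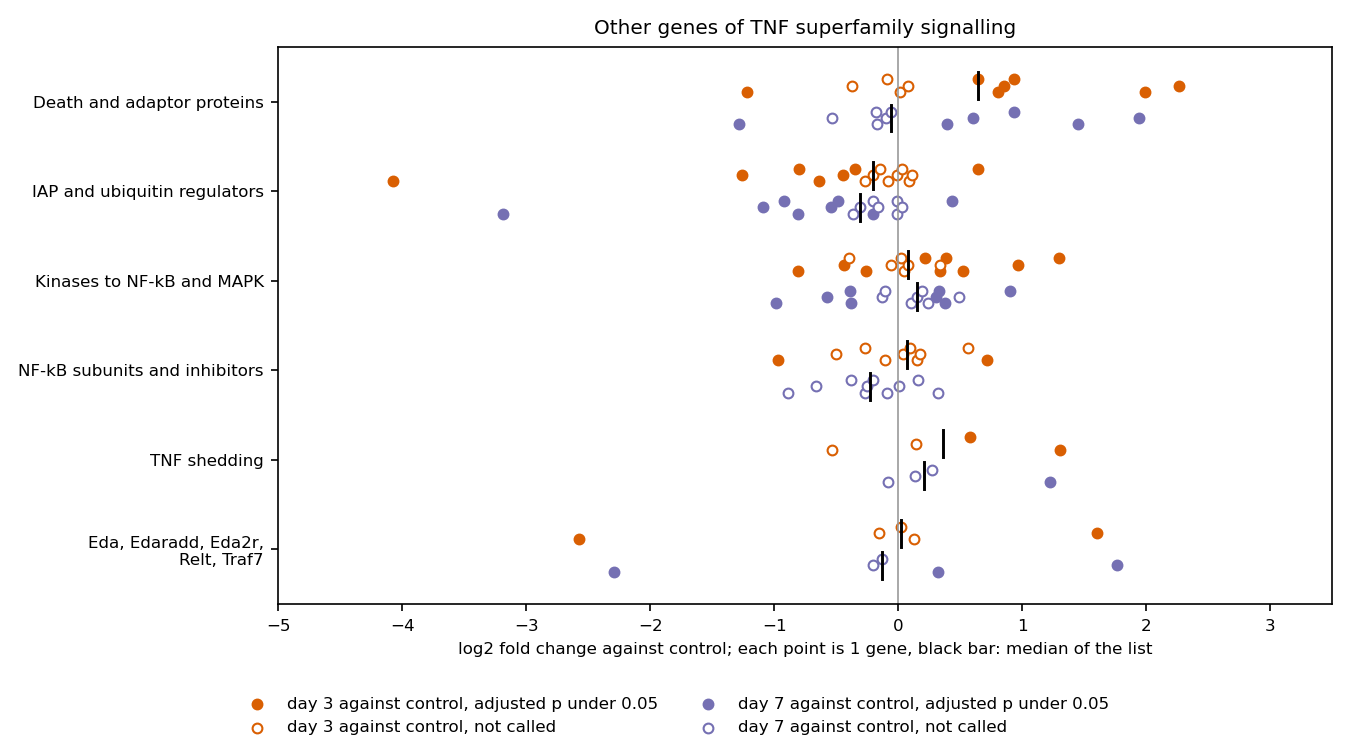
Log2 fold change of the 60 other pathway genes tested, by list, in day 3 grafts (orange) and day 7 grafts (purple) against controls; filled points passed an adjusted p of 0.05 and the black bar is the median of the list. Ripk3 at 2.27 and Mlkl at 1.99 are the farthest right at day 3, and Traf3ip3 at -4.08 is the farthest left.

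In the genome 22 of the 47 genes lie within 200 kb of another member, in 9 groups of neighbours on mm10 by the positions in the matrix. Neighbours did not always move together. Tnfrsf1a and Ltbr rose at both days while Cd27 fell, and these 3 genes occupy 125232622 to 125362484 on chromosome 6. Tnfrsf1b and Tnfrsf8, at 145213463 to 145315164 on chromosome 4, both rose. Tnfrsf4 and Tnfrsf18, at 156013843 to 156028895 on chromosome 4, both fell. Tnfsf9 and Tnfsf14 rose, and Cd70 between them was not tested, at 57105325 to 57194177 on chromosome 17. Tnfrsf22 and Tnfrsf23 rose at both days and Tnfrsf26 at day 7, at 143607659 to 143685872 on chromosome 7. Without control 4 the calls of Tnfrsf8 and Tnfsf14 were lost at both days and that of Tnfrsf22 at day 7. Not all of the 9 groups are described here.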

How the data were processed

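Stranded mRNA libraries of column-purified total RNA were read as pairs, per the labels' protocols. Tools named in the submitters' processing notes are cutadapt 2.8, STAR 2.7.1a and RSEM 1.3.1, with mm10 as build; their roles are not stated, and the annotation release was not among the sources used. Each gene and sample has 3 values deposited by the authors, a whole-number estimated count without scaling, an RPKM and a TPM, per the file headers. The deposited RPKM values were not used. The deposited TPM values served to compare levels between genes and in an alternative fit.

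Estimated counts of 15 samples in 3 groups were fitted together with limma 3.58.1 (voom weights, R 4.3.3). Trimmed means of M-values (TMM) scaled the libraries, with factors of 0.746 to 1.14. Genes needed a CPM of 0.3894 in 5 samples and 15 counts in all, which left 16051 genes and 44 of the 47 members. P-values were Benjamini-Hochberg adjusted over all 16051, and genes under 0.05 were called. Sample values are counts per 1000000 (CPM) of the scaled library. The fit was also run on simulated counts in which few genes changed and all samples of a group shared 1 mean. That setting differs from these data, so the run does not measure the error rate here. Members, marker lists and pathway lists were chosen with earlier results of these data known. Per-sample values and full statistics went to Tnf and its receptors, the TWEAK pair, and in each comparison up to 8 higher and 8 lower called members of largest change that averaged 1 CPM or more in some group. Tnfsf10, Tnfsf13b, Traf4 and, outside the family, Casp8, Ripk1, Fadd and Tnfaip3 were added after their values were seen; the other members are given by range. Alternatives covered scaling, filters, TPM, sample weights, the replicate block and left-out samples. Total depths of 17.1 to 32 M estimated counts limit the precision for genes under 1 CPM. Counts by role, pairing, marker list and pathway list without control 4 were added after the data were seen.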

Additional observations from a re-analysis of the deposited data

Results flagged for a closer look

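Within each group of 5 samples, 132 sets of member values were examined for a single sample far from the rest, by a gap to its nearest neighbour above 0.71 of the whole range. In 8 of them (6.06%) a sample stood apart, where chance gives about 1 in 20. Cd40 was highest in day 7 graft 4 at 16.1 CPM, against 10.3 to 11.8 CPM in the other day 7 grafts. Tnfsf11 was highest in day 3 graft 4 at 8.13 CPM. Tnfrsf19 was highest in day 3 graft 1 at 0.6 CPM, the library that also had 291 CPM of skeletal muscle markers. Among day 7 grafts Tnfrsf19 was highest in graft 2 at 1.2 CPM, where those markers summed to 9.7 CPM, against 264 CPM in graft 3. A link between them was not tested. In day 7 graft 5, Tnfsf9 was highest at 14.7 CPM and Tnfsf10 was lowest at 5.49 CPM, and that library also had the lowest smooth muscle and pericyte sum of its group, 242 CPM. In control 5, Tnfrsf11b was highest at 4.22 CPM and Tnfsf13 was highest at 8.15 CPM, and control 5 had the highest macrophage sum among controls, 1169 CPM. Tnfrsf22 was lowest in control 4 at 7.58 CPM.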

How the results depend on the processing

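At day 3 the calls of 16 members higher and 13 lower stayed within 1.5 times under every alternative run, and leaving out 1 sample gave 14 to 17 higher and 12 to 19 lower. Over all genes those fits called 27.7% to 30.9% higher and 27.3% to 33.2% lower. At day 7, 19 higher and 11 lower became 12 higher and 18 lower without controls 2, 4 and 5. That fit called 27.1% of all genes higher and 28.8% lower. Sample quality weights gave 18 lower at day 7, where 35.4% of all genes were called lower. Leaving out 1 sample at day 7 gave 15 to 19 higher and 11 to 18 lower. Over all genes the shares in those fits were 29.5% to 32.4% higher and 26.3% to 33.2% lower. Between day 7 and day 3, where no member was called, quality weights gave 4 higher and 2 lower, where 13.3% of all genes were called higher and 9.55% lower. Without day 3 graft 1 and day 7 graft 5 there were 2 higher and 1 lower, against 5.92% and 3.7% of all genes. Without controls 2, 4 and 5 there were 1 higher and 3 lower, against 5.2% and 4.29% of all genes. The log2(TPM + 1) fit gave 1 higher, against 3.17% of all genes, and median-of-ratios scaling 1 lower, against 1.92%. A fit of the 2 groups alone gave 2 lower, against 4.05% of all genes. Leaving out 1 sample gave 0 to 2 higher and 0 to 3 lower, against 1.44% to 6.25% and 0.561% to 4.28% of all genes. Deviations of log2 CPM from the group mean correlated between -0.183 and 0.341 in same-numbered samples of different groups. Samples of different numbers were not correlated in this way, so these values have no reference and do not settle whether the numbers pair the samples. The main fit used no pairing. The replicate block gave 15 higher and 14 lower at day 3, 19 higher and 14 lower at day 7 and 1 higher at day 7 against day 3. Over all genes it called 30% higher and 30.5% lower at day 3 and 32% higher and 28.6% lower at day 7. Its share higher at day 7 against day 3 was 2.6%. Among the named members, 1634 of the refitted values kept their direction and their side of the threshold, 31 lost and 22 gained a call, and 26 changed sign with no call in either fit. For Tnf at day 7, leaving out 1 sample gave -0.30 to 0.85, and leaving out controls 2, 4 and 5 gave -0.46. The others that changed sign were log2 changes of day 7 against day 3. Leaving out 1 sample gave -0.10 to 0.14 for Tnfrsf1b, -0.25 to 0.0123 for Tnfrsf21, -0.22 to 0.17 for Tnfrsf25, -0.0689 to 0.0915 for Tnfsf12, -0.16 to 0.36 for Tnfsf14 and -0.23 to 0.0103 for Traf5. Without day 3 graft 1 and day 7 graft 5 the values were -0.044 for Tnfsf12, 0.055 for Tnfrsf21 and -0.081 for Tnfsf14. Quality weights gave -0.21 for Tnfsf14 and 0.17 for Tnfrsf25. TPM with a pseudocount of 1 and of 0.1 gave 0.0102 and 0.0122 for Tnfrsf21, 0.0391 and 0.0608 for Tnfrsf25, and 0.0006 and 0 for Traf5. The causes were not tested. Depth limits members under 1 CPM, such as Tnfsf4, Tnfsf18, Tnfsf15 and Fasl.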
